A study of Mus musculus with 24 samples.

Results

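The deposited table holds 24 Affymetrix arrays in 24 sample columns, and 6 of these columns, 8, 16 and 24 against 7, 15 and 23, were compared as 2 sets of 3 arrays. Each column was numbered by its place in the table, and every 8th column was put in 1 set, which gave 8 sets of 3. The sets were chosen by the similarity of the arrays over all genes, since arrays 8 columns apart resembled each other while the labels change every 3 columns. The same log2 expression values are described here, so all levels and differences below are a description of these arrays, and p-values are given only to set a difference beside the spread between arrays. For single genes that spread is pooled within all 8 sets. Their standard errors, intervals and p-values thus do not measure the scatter of the 6 arrays alone.

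The arrays measured RNA of MLO-Y4 cells, an osteocyte-like line from a mouse of mixed C57B1/6, BALB/c and DBA2 background, grown on collagen-coated glass. The labels give 8 groups of 3 arrays, flow and sham at 0, 2, 8 and 24 h. Sham cells were held in static chambers, while flow cells had oscillation at 1 Hz for 2 h with a shear stress of 10 dyn/cm2. The study's methods give flow and static cells collected in triplicate, without saying whether these were independent experiments, so p-values cover the spread among the arrays alone, and part of that spread may be technical. Columns 8, 16 and 24 are labelled sham 2 h replicate 2, flow 8 h replicate 1 and flow 24 h replicate 3. Columns 7, 15 and 23 are labelled sham 2 h replicate 1, sham 8 h replicate 3 and flow 24 h replicate 2. The labels may not match the columns, which these values cannot settle, and a label is printed here only to identify its column. As labelled, each set mixes treatments and times, and no difference between the sets is given here as a difference of flow or of time. In the neighbouring columns 8 and 7, and in 24 and 23, the label is shared, whereas column 16 is labelled flow and column 15 sham.

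Osteocytes are the cells buried within bone, where fluid moving through their canals bends and shears the cell. They answer such loading with calcium signals, release of prostaglandin E and nitric oxide, and changes in secreted regulators of bone formation and resorption. MLO-Y4 cells were derived from long bones of a mouse with a large T antigen transgene driven by the osteocalcin promoter, are kept as 1 line, and are known for abundant connexin channels and little of the matrix regulators of mature osteocytes. On the 6 arrays Gja1, which encodes connexin 43, had log2 values between 12.96 and 13.06, and Pdpn, the podoplanin of osteocyte dendrites, between 12.20 and 12.51. Phex, an endopeptidase of phosphate control, lay between 8.78 and 9.17. Dmp1 and Mepe, matrix phosphoproteins of mature osteocytes, Sost, the Wnt antagonist sclerostin, and Fgf23, the phosphate hormone, stayed under 6 on all 6 arrays, the level below which a gene is called dim here. These last 4 were thus seen at a dim level at most, beside the connexin and podoplanin of the line.

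The 6 arrays formed a close group, and within it the neighbouring column mattered more than the set. Similarity was measured as the correlation, over 12393 genes, of each array's deviations from the mean of every gene over the 24 arrays. Genes are not independent, so these correlations describe the arrays only. Over all arrays the mean correlation was 0.369 for the 16 pairs that lie 8 columns apart and 0.421 for the 8 pairs that lie 16 apart, against -0.321 for the 20 pairs that lie 4 apart. Among the 6 arrays, the 3 neighbouring pairs had correlations of 0.733 for columns 8 and 7, 0.744 for 16 and 15, and 0.737 for 24 and 23. Pairs within columns 8, 16 and 24 had 0.595, 0.574 and 0.683, and pairs within columns 7, 15 and 23 had 0.666, 0.638 and 0.660. Pairs of 1 array from each set that were not neighbours ran from 0.552 to 0.704, a range that holds all pairs within a set. For all 6 arrays the nearest array was the neighbouring column, also for columns 16 and 15 with their different labels. An array of the 6 and 1 of the other 18 had correlations from -0.583 to 0.369, with a median of -0.349 over 108 pairs. Columns 5, 13, 21 and 6, 14, 22 were the nearest of these, at -0.139 to 0.369 over 36 pairs, against -0.583 to -0.226 over the 72 pairs with the remaining 12 arrays.

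**Figure D1:**
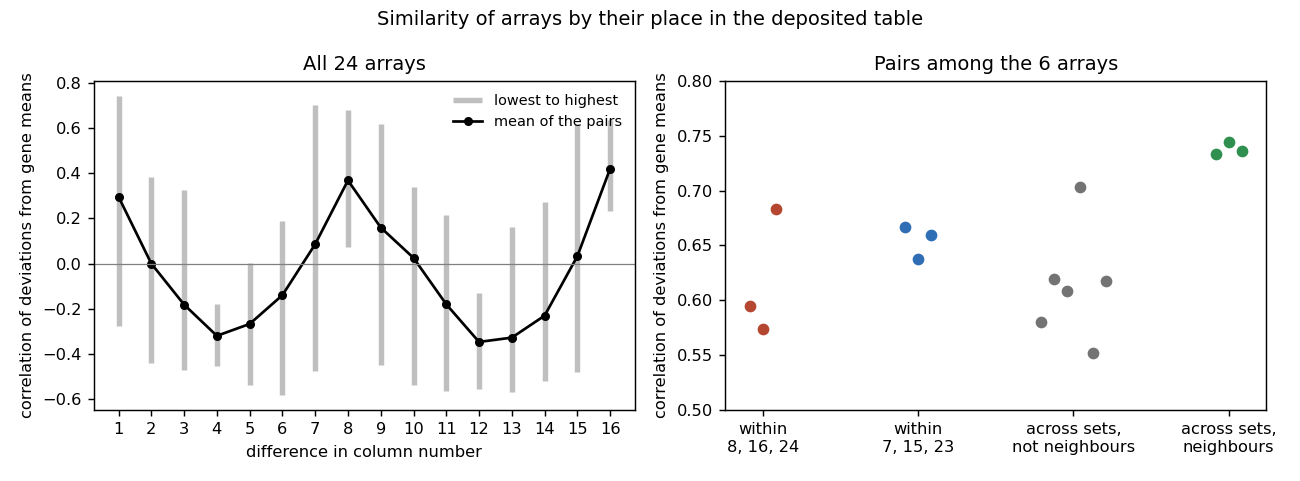
Correlation of the arrays' deviations from gene means, on the left against the difference in column number (line, mean of the pairs; grey bars, lowest to highest), on the right for each pair among the 6 arrays. The mean peaked at 8 and 16 columns apart (0.369 and 0.421), and the 3 neighbouring pairs at 0.733 to 0.744 lay above every pair within a set.

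No gene separated columns 8, 16 and 24 from columns 7, 15 and 23 by limma's test. The fit held 1 mean for each of the 8 sets over all 24 arrays, and none of 12393 genes passed an adjusted p of 0.05 (0 called, 0%, smallest adjusted p = 1 with Benjamini-Hochberg adjustment over all genes). At an unadjusted p under 0.05 there were 466 genes, 3.76% of those tested, 369 higher and 97 lower on columns 8, 16 and 24. The differences were small as well as uncalled. The median absolute difference was 0.0498 on the log2 scale, 99% of genes stayed within 0.262 either way, and the extremes were 0.44 and -0.48, so no gene reached 1.5-fold. The 95% interval of the difference lay within 1.5-fold either way for 12194 genes (98.4%). The neighbouring sets elsewhere in the table gave larger extremes. Columns 2, 10 and 18 against 1, 9 and 17 held 34 genes at 1.5-fold or more and 10 at 2-fold or more, columns 4, 12 and 20 against 3, 11 and 19 held 42 and 13, and columns 6, 14 and 22 against 5, 13 and 21 held 8 and 0. Of these only columns 4, 12 and 20 against 3, 11 and 19 had a called gene, 1 of them. When the difference of columns 8, 16 and 24 from 7, 15 and 23 was tested against the mean of these 3 other differences, 0 genes were called (415 at an unadjusted p under 0.05, smallest adjusted p = 0.609, limma).

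The 3 neighbouring pairs carried little of a shared difference. Across genes, the difference of column 8 from 7 correlated with that of 16 from 15 at 0.145 and with that of 24 from 23 at 0.0759, and the last 2 correlated at 0.0494. All 3 neighbour differences had the same sign for 3771 genes (30.4%), above 0 for 1941 and below 0 for 1830, and in none of them did all 3 reach 1.5-fold. Without overlap, 582 genes (4.7%) were higher on all 3 of columns 8, 16 and 24 than on all 3 of columns 7, 15 and 23, and 481 (3.88%) were lower. Of the 582, 377 were dim (under a log2 value of 6 on all but 2 arrays at most), against 84 of the 481.

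Direction followed the level of the gene. Genes with a mean log2 value under 6 had a median difference of 0.0416, and 65.5% of 4709 such genes were higher on columns 8, 16 and 24. Among the 7684 genes at 6 or more, the median was -0.0117 and 41.7% were higher. The lower-level genes had medians of 0.0394, 0.0538 and 0.0351 in the 3 neighbouring pairs, and the others had -0.0124, -0.0120 and -0.0078, so all 3 pairs showed it. Columns 2, 10 and 18 against 1, 9 and 17 had a like pattern (0.0393 and -0.0107), and columns 6, 14 and 22 against 5, 13 and 21 had none (0.0154 and 0.0155). After a further quantile normalization of the deposited values the medians were 0.0124 and 0.00426, the second with its sign changed. A list of mostly dim genes may carry this offset, and its part in a list's median was not tested. Such lists were not all alike. The Wnt genes, 19 of 28 dim, had a median of 0.01, and the C-C and remaining chemokines, 13 of 20 dim, had 0.07.

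**Figure D2:**
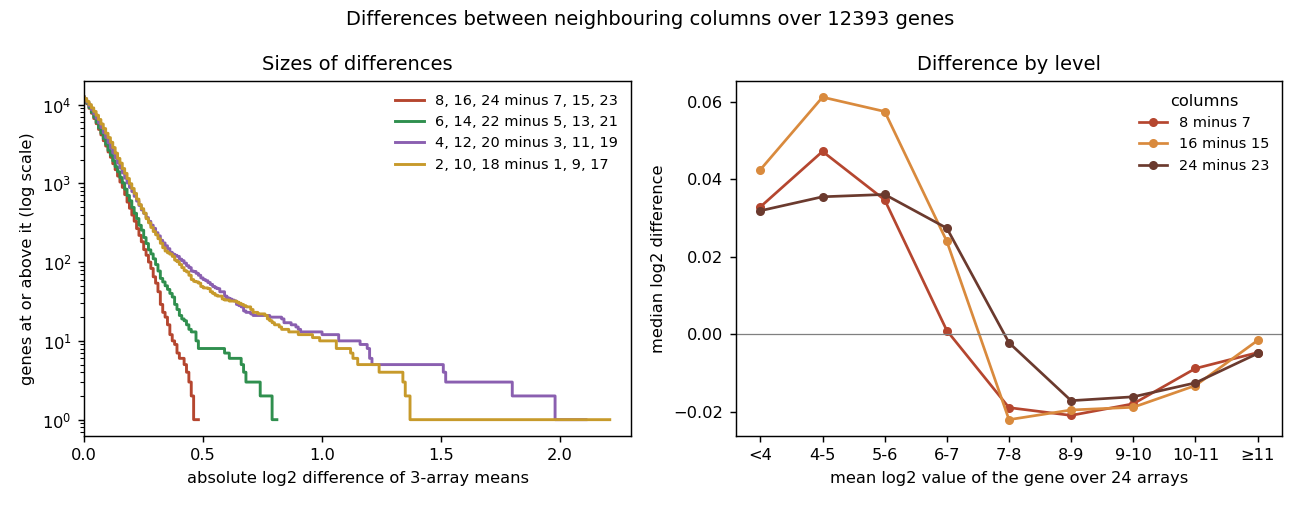
Left, number of genes (log scale) at or above each absolute log2 difference between neighbouring sets of 3 arrays, where columns 8, 16 and 24 against 7, 15 and 23 end at 0.48 and the sets of columns 4, 12, 20 and 2, 10, 18 reach past 1.9. Right, median log2 difference in each of the 3 neighbouring pairs by the mean log2 value of the gene, above 0 under a level of 6 and below 0 from 7 upward.

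Among genes that were not dim, the largest positive difference belonged to Lcn2, which encodes lipocalin 2, a secreted protein that binds bacterial siderophores and is made by bone cells under inflammation. It had 9.53, 9.63 and 9.96 on columns 8, 16 and 24, against 9.12, 9.32 and 9.57 on columns 7, 15 and 23. The sets overlapped, yet each array was above its neighbour, by 0.41, 0.31 and 0.39. Its difference was 0.37 with a standard error of 0.48 (95% interval -0.62 to 1.36), and Lcn2 also differed by 0.83 between columns 4, 12, 20 and 3, 11, 19 and by 0.74 between columns 6, 14, 22 and 5, 13, 21. The standard error takes in the spread of other sets, such as columns 3, 11 and 19 with 5.65, 7.97 and 6.45. Akr1c13, an aldo-keto reductase, had 6.81, 6.99 and 6.81, against 6.62, 6.46 and 6.60 on columns 7, 15 and 23, with no overlap (difference 0.31, standard error 0.10). It also stood higher on the 6 arrays than on any other, where it reached at most 6.38. Rtn4r, the receptor of the neurite growth inhibitor Nogo, had 6.74, 6.70 and 6.80 on columns 8, 16 and 24, against 6.41, 6.43 and 6.62 on columns 7, 15 and 23 (0.26, standard error 0.07). The other 18 arrays ran from 6.50 to 6.81, which takes in columns 8, 16 and 24 and leaves columns 7 and 15 below.

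A few further genes were higher on all 3 arrays. Tecpr1, which links autophagosomes to lysosomes, had 7.88, 7.89 and 7.79 on columns 8, 16 and 24 and 7.56, 7.61 and 7.72 on columns 7, 15 and 23. Aif1l, an actin-binding protein, had 6.47, 6.64 and 6.73 on columns 8, 16 and 24 and 6.11, 6.37 and 6.39 on columns 7, 15 and 23. Sez6, a membrane protein of neurons, had 6.60, 6.69 and 6.72 on columns 8, 16 and 24 and 6.25, 6.39 and 6.49 on columns 7, 15 and 23. Each of these was higher in all 3 neighbouring pairs, with differences of 0.23, 0.33 and 0.30 and standard errors of 0.06, 0.11 and 0.09, but the mean over all probe sets of the gene gave 0.12, 0.10 and 0.20. Mgp, matrix Gla protein, an inhibitor of calcification, had 5.57, 5.94 and 5.98 on columns 8, 16 and 24, against 5.58, 5.63 and 5.39 on columns 7, 15 and 23 (0.30, standard error 0.12), so columns 8 and 7 were nearly level. Egr1, an immediate early transcription factor, had a difference of 0.29 that came from 1 array. It had 9.31, 8.21 and 7.99 on columns 8, 16 and 24, against 8.47, 8.05 and 8.11 on columns 7, 15 and 23, and without column 8 (sham 2 h replicate 2) the difference was -0.11.

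The largest negative difference among genes that were not dim was that of Il6, the cytokine interleukin 6, which promotes osteoclast formation. Its levels were 6.41, 5.40 and 6.25 on columns 8, 16 and 24, against 6.70, 6.14 and 6.60 on columns 7, 15 and 23. The sets overlapped, but each array was below its neighbour, by 0.28, 0.74 and 0.36. The difference was -0.46 with a standard error of 0.56, whereas the other neighbouring sets had 0.77, 1.07 and 0.68. Asb13, a subunit that recruits substrates for ubiquitin ligases, had 7.44, 7.33 and 7.56 on columns 8, 16 and 24, against 7.77, 7.82 and 7.87 on columns 7, 15 and 23 (-0.38, standard error 0.15). Its other probe sets had differences between -0.30 and -0.09, so all pointed the same way.

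Itih5, a hyaluronan-binding inhibitor family member, had 5.98, 5.93 and 6.11 on columns 8, 16 and 24, against 6.33, 6.44 and 6.35 on columns 7, 15 and 23, without overlap (-0.37, standard error 0.10). On the other 18 arrays it ran from 6.72 to 7.39, so columns 8, 16 and 24 lay farthest from the rest. Mmp19, a matrix metalloproteinase, had 7.14, 7.10 and 7.02 on columns 8, 16 and 24, against 7.48, 7.53 and 7.20 on columns 7, 15 and 23 (-0.32, standard error 0.19). Its other probe set differed by 0.07, in the opposite direction. Mertk, a receptor for the uptake of dying cells, had 6.05, 5.84 and 5.80 on columns 8, 16 and 24, against 6.35, 6.20 and 6.04 on columns 7, 15 and 23 (-0.30, standard error 0.12). Il15, a lymphocyte growth factor, Cd274, the checkpoint ligand PD-L1, and Thbs1, the matricellular protein thrombospondin 1, had differences of -0.31, -0.30 and -0.29 with standard errors of 0.32, 0.27 and 0.49. All 3 of these were without overlap and lower in every neighbouring pair, and none was near the threshold.

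**Figure D3:**
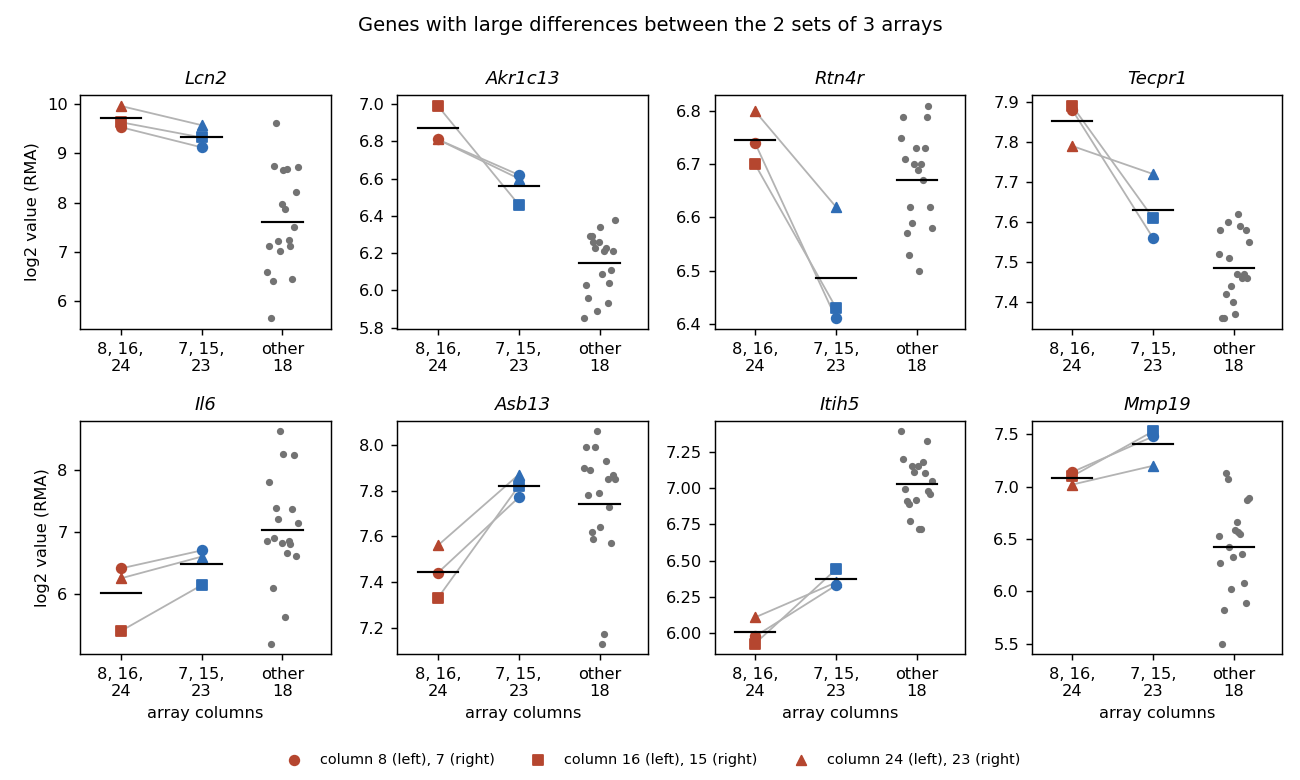
Log2 values of 8 genes on columns 8, 16 and 24 (red), columns 7, 15 and 23 (blue) and the other 18 arrays (grey). Grey lines join neighbouring columns, bars are means, and each panel has its own axis. The differences run from 0.37 for Lcn2 to -0.46 for Il6, and the other arrays spread more widely than that for both.

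The 33 pathway lists shifted as little as the single genes. Their 804 distinct measured genes held 0 called genes, 16 at an unadjusted p under 0.05, 22 (2.74%) that were higher without overlap and 33 (4.10%) that were lower, against 4.7% and 3.88% over all genes. The median difference of a list lay between -0.09 and 0.07 on the log2 scale, and that over all genes was 0.00. In bulk RNA of this kind, fewer cells of a type and less RNA per cell cannot be told apart.

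Secreted inflammatory signals differed little between the sets. Of 13 C-X-C chemokines, which draw neutrophils and lymphocytes, 7 had a higher mean on columns 8, 16 and 24 (median 0.04), and 15 of 20 chemokines in the C-C and remaining families did (median 0.07), 13 of these 20 genes being dim. Cxcl13, a B-cell attractant, had 5.81, 5.85 and 5.73 on columns 8, 16 and 24, against 5.50, 5.72 and 5.67 on columns 7, 15 and 23. Ccl22, a ligand of the receptor CCR4, had 5.02, 5.03 and 5.14 on columns 8, 16 and 24, against 4.96, 4.93 and 4.82 on columns 7, 15 and 23 (differences 0.16 and 0.16, standard errors 0.08 and 0.08). Among 21 members of the IL-6 family and other inflammatory cytokines, 7 had a higher mean and the median was -0.09, with -0.01, -0.01 and -0.13 in the 3 neighbouring pairs. Il1rn, the antagonist of the interleukin 1 receptor, differed by -0.23 (standard error 0.09), at a dim level of 4.59 on columns 8, 16 and 24 and 4.81 on columns 7, 15 and 23. Its other probe sets ran from -0.10 to 0.01, and the mean over all of them was -0.11. For 16 genes of NF-kB, the transcription factor family behind many of these signals, the median was -0.02. Its subunit Rel differed by -0.30 (standard error 0.14), most of all between columns 16 and 15, by -0.63. Rel was dim, with means of 4.82 on columns 8, 16 and 24 and 5.12 on columns 7, 15 and 23.

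The type I interferon response had nearly all its members on one side. Of 23 measured genes, 2 had a higher mean on columns 8, 16 and 24, against 50.7% of all genes, and the median difference was -0.07. Without overlap 5 were lower and 0 higher, against 3.88% and 4.7% over all genes. Genes at this list's levels leaned the same way, as 0 of the 23 were dim. Of the 7684 genes with a mean of 6 or more, 41.7% were higher, and without overlap 387 were lower and 186 higher. The neighbouring pairs had list medians of -0.08, -0.13 and 0.00, so columns 24 and 23 did not share it, and no list gene was called or had an unadjusted p under 0.05. Ifih1, the RNA sensor MDA5, had 11.80, 11.78 and 11.82 on columns 8, 16 and 24, against 11.98, 11.99 and 11.90 on columns 7, 15 and 23 (-0.15, standard error 0.10). Irgm1, an interferon-induced GTPase, had 11.13, 11.11 and 11.21, against 11.29, 11.28 and 11.26 on columns 7, 15 and 23 (-0.13, standard error 0.10). The other 18 arrays ran from 11.79 to 12.29 for Ifih1, with columns 8, 16 and 24 at the lower edge, and from 10.90 to 11.59 for Irgm1, with both sets inside.

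Genes of matrix, adhesion and growth factor signals had medians near 0. Of 39 collagens, matrix proteins and cross-linking enzymes, 19 had a higher mean on columns 8, 16 and 24 (median 0.00). Hspg2, the basement membrane proteoglycan perlecan, had 8.56, 8.58 and 8.65 on columns 8, 16 and 24, against 8.35, 8.36 and 8.56 on columns 7, 15 and 23 (0.17, standard error 0.07), but its other probe set gave -0.01. YAP targets and matricellular proteins, which follow the stretch of the cell, had 3 of 16 with a higher mean and a median of -0.07. Ltbp1, which stores latent TGF-beta in the matrix, had 10.54, 10.57 and 10.64, against 10.73, 10.65 and 10.77 on columns 7, 15 and 23. Itga2, an integrin for collagen, had 5.41, 5.60 and 5.77, against 5.13, 5.43 and 5.48 on columns 7, 15 and 23, and each array was above its neighbour. Differences of the last 2 were -0.13 and 0.25 with standard errors of 0.07 and 0.09.

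Regulatory genes that answer a stimulus within minutes were also close between the sets. Of 23 immediate early transcription factors 15 had a higher mean on columns 8, 16 and 24, with a median of 0.02. Nr4a3, an orphan nuclear receptor, differed by 0.13 without overlap and Fosl2, a Fos family member, by 0.16 (standard errors 0.07 and 0.07). Spry1, a feedback inhibitor of ERK signaling, differed by 0.18, higher in columns 8 and 24 than in their neighbours and lower in column 16. Among 28 Wnt genes the median was 0.01. Wnt5a, a non-canonical Wnt ligand, had 4.25, 3.65 and 3.55 on columns 8, 16 and 24, against 3.55, 3.40 and 3.59 on columns 7, 15 and 23, so its difference of 0.30 rested mostly on column 8 (sham 2 h replicate 2), without which it was 0.08. The osteocyte and osteoblast list of 17 genes had a median of -0.01. Dmp1 differed by -0.11 and Mepe by 0.15 (standard errors 0.06 and 0.08), both at dim levels.

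Metabolic and stress lists had medians close to 0. Medians were 0.00 for 54 oxidative phosphorylation subunits and for 28 ribosomal proteins, -0.01 for 34 hypoxia and glycolysis genes, -0.01 for 45 genes of the unfolded protein and amino acid response, and 0.02 for 36 antioxidant genes. Nqo1, a quinone reductase driven by NRF2, had 9.88, 9.81 and 9.78 on columns 8, 16 and 24, against 9.71, 9.61 and 9.62 on columns 7, 15 and 23 (0.17, standard error 0.11). The neighbour differences of Nqo1, 0.17, 0.20 and 0.16, were nearly equal. Arnt, the partner of the aryl hydrocarbon receptor, had 5.49, 5.74 and 5.54, against 5.87, 5.82 and 5.79 on columns 7, 15 and 23 (-0.24, standard error 0.09), but its other probe set gave 0.07. Atg12, a ubiquitin-like protein of autophagy, had 8.27, 8.32 and 8.19 on columns 8, 16 and 24, against 8.39, 8.52 and 8.40 on columns 7, 15 and 23, and its other probe sets had differences between -0.22 and -0.18. Tfeb, the transcription factor of lysosomal genes, differed by 0.17, with 6.79, 6.83 and 7.01 on columns 8, 16 and 24 and 6.58, 6.64 and 6.90 on columns 7, 15 and 23.

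Cell cycle and lipid genes gave a few small differences with little spread. The lists of 31 G2 and mitosis genes and 40 genes of DNA replication had medians of 0.02 and -0.01. Mcm3, a subunit of the replicative helicase, had 10.40, 10.48 and 10.41 on columns 8, 16 and 24, against 10.54, 10.56 and 10.54 on columns 7, 15 and 23 (-0.12, standard error 0.06). Acly, which makes acetyl-CoA for lipid synthesis, had 11.14, 11.28 and 11.15, against 11.28, 11.30 and 11.32 on columns 7, 15 and 23 (-0.11, standard error 0.05). Averaged over their probe sets, Mcm3 and Acly both differed by -0.08. Nampt, an enzyme of NAD salvage, differed by -0.10 without overlap, and by 0.01 in its other probe set. Gpx3, a secreted glutathione peroxidase, and Sesn3, a FoxO target, differed by 0.24 and 0.25 without overlap, both at dim levels.

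Markers of other cell types were mostly dim, and the summed levels of 2 of the 7 marker lists did not overlap between the sets. Of 9 macrophage and monocyte markers 8 stayed under 6 on all 6 arrays, as did 6 of 8 endothelial, 4 of 7 adipocyte, 4 of 6 osteoclast, 5 of 7 skeletal muscle and 4 of 6 osteoblast markers. Col1a2, a collagen I chain on the osteoblast list, was high at 12.30 to 12.38. Lpl, lipoprotein lipase, at 11.46 to 11.89, and Ctsk, cathepsin K, at 11.66 to 11.78, were high too. The other collagen I chain, Col1a1, ran from 7.50 to 7.79. Summed log2 values of the skeletal muscle markers ran from 35.99 to 36.47 on columns 8, 16 and 24 and from 34.53 to 35.96 on columns 7, 15 and 23. All 7 of these markers had a higher mean on columns 8, 16 and 24, with a median difference of 0.14, among them Actn2, alpha-actinin 2, with 0.29, and Ckm, muscle creatine kinase, with 0.18. Their median level on the 6 arrays was 5.05, in the range where most genes were higher on these columns. For the endothelial markers the sums were 36.46 to 36.92 on columns 8, 16 and 24 and 35.94 to 36.31 on columns 7, 15 and 23. Their median level on the 6 arrays was 3.95, in that same range. The sums of the other 5 lists overlapped between the sets.

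RNA quality was compared by control signals from both ends of a transcript, with too few arrays for a test to reach 0.05. The 3′ minus 5′ control signal, on the log2 scale, was -0.177, -0.159 and -0.189 for Gapdh on columns 8, 16 and 24, against -0.162, -0.162 and -0.158 on columns 7, 15 and 23 (exact permutation test, two-sided, p = 0.3). For beta-actin it was 0.262, 0.224 and 0.224, against 0.242, 0.248 and 0.244 on columns 7, 15 and 23 (exact permutation p = 0.4). With 3 arrays against 3 such a test cannot give a p under 0.1. The mean of 18 hybridization control probe sets averaged 10.36 on columns 8, 16 and 24 and 10.27 on columns 7, 15 and 23 (exact permutation p = 0.9). By array it was 10.649, 10.259 and 10.169, against 10.266, 10.221 and 10.323 on columns 7, 15 and 23. Column 8 was above every other array, as the other 18 reached at most 10.453. Without column 8 the difference was -0.056. Column 8 also carried most of the Egr1 and Wnt5a differences, and a link to its control signal was not tested.

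Both sets together were also set beside the other 18 arrays. On all 6 arrays 628 genes (5.07%) were higher than on each of the other 18, and 302 (2.44%) were lower. Since the 6 arrays resemble each other by the way they were chosen, these counts describe that group and are no test of it. The labels of the 6 arrays span sham and flow and 2, 8 and 24 h, and other arrays of the same labels lie among the 18. The 3′ minus 5′ signal of beta-actin ran from 0.224 to 0.262 on the 6 arrays and from 0.138 to 0.242 on the others, and that of Gapdh from -0.189 to -0.158 on the 6 arrays and from -0.196 to -0.074 on the others. Its part in the differences from the 18 was not tested.

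The other 18 arrays were not alike, and columns 5, 13, 21 and 6, 14, 22 mostly lay partway towards the 6. Their mean was between that of the 6 arrays and that of the remaining 12 for 544 of the 628 higher genes and for 241 of the 302 lower ones. Over all 628 and all 302 genes, the median place was 30.3% and 21.7% of the way from the 12 to the 6. Avil, the actin regulator advillin, averaged 10.62 on columns 8, 16 and 24 and 10.65 on columns 7, 15 and 23, then 9.70 on columns 6, 14 and 22 and 9.61 on columns 5, 13 and 21, and 8.41 to 8.65 on the other 4 sets. Ccl2, a chemokine that recruits monocytes, averaged 10.77 and 10.70 on these first sets, 12.02 and 11.64 on the next ones, and 12.52 to 13.09 on the other 4. The choice of genes fixed the 6 arrays as the far end, so only the order of the other 18 was free. For most of these genes that order was graded, and the 6 arrays were not a group apart from 18 equal arrays. Between columns 8, 16, 24 and 7, 15, 23, 42 of the 628 higher genes and 27 of the 302 lower ones did not overlap. Both counts take in either direction, higher or lower on columns 8, 16 and 24. Over all genes 4.7% were higher and 3.88% lower on these columns without overlap. Each count therefore compares with the sum of these shares, and with neither share alone. The largest absolute differences between these sets were 0.31 among the 628 genes and 0.37 among the 302. For 54 genes picked for the text after their values were seen, the sets differed by at most 0.19. They overlapped in all but 2 of these, Ifnb1 and Id3.

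Some chemokines and other NF-kB responsive genes were among the lowest on the 6 arrays. Cxcl1, a neutrophil attractant, had 9.63, 8.56 and 8.67 on columns 8, 16 and 24 and 9.38, 8.91 and 8.80 on columns 7, 15 and 23, and ran from 9.66 to 13.72 with a median of 11.26 on the other 18. The mean difference of the 6 arrays from the rest was -2.40 for Cxcl1, while the sets differed by -0.07. Cxcl5, a chemokine of the same family, had 8.50, 7.83 and 8.06 on columns 8, 16 and 24 and 8.33, 7.94 and 7.87 on columns 7, 15 and 23, against 9.34 to 12.68 on the rest. Ccl2 had 11.03, 10.46 and 10.82 on columns 8, 16 and 24 and 10.76, 10.72 and 10.62 on columns 7, 15 and 23, against 11.10 to 13.42 on the rest. Ifnb1, interferon beta, had 5.58, 5.42 and 5.55 on columns 8, 16 and 24 and 5.69, 5.74 and 5.71 on columns 7, 15 and 23, without overlap (-0.19, standard error 0.36), and lay at 6.31 or more, with a median of 7.86, on the others. In each of these genes the gap between the 6 arrays and the nearest other array was smaller than the spread of the other 18. Nfkbia, the inhibitor that NF-kB induces to shut itself off, ran from 10.65 to 10.90 on the 6 arrays and from 11.10 to 12.52 on the others, and Nfkb2, an NF-kB subunit, from 7.40 to 7.57 on the 6 arrays and from 7.79 to 8.59 on the others. Ptges, the synthase of the loading signal prostaglandin E, ran from 7.65 to 7.90 on the 6 arrays, against 8.15 to 8.81. Not every gene of inflammation was low. Lcn2 averaged 9.70 on columns 8, 16 and 24 and 9.34 on columns 7, 15 and 23, against set means of 6.69 to 9.01 elsewhere. Of the 4 lists of chemokines, cytokines and NF-kB genes, 3 of 13, 1 of 20, 3 of 21 and 4 of 16 measured genes were lower on all 6 arrays, against 2.44% of all genes, and 0, 0, 1 and 0 were higher.

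The bases before the starts of some of these genes are shown with the NF-kB-like motif GGGNNTTTCC, searched on both strands over 250 bases before each start. Whether NF-kB had a part in their levels was not tested. The promoter table of RefSeq (build GRCm38.p6) held the motif in 464 of 32851 promoters (1.41%), and in at least 1 promoter of 447 of 27025 gene symbols (1.65%). It held a promoter for 6 of the 11 list genes that were lower on all 6 arrays, and 4 of the 6, Csf1, Cxcl1, Nfkb2 and Nfkbia, had a match, or 5 of the 8 promoters of these 6 genes. The genes were chosen after their values were seen, and from lists of chemokines, cytokines and NF-kB genes, many of which NF-kB drives. Other members of these lists were not counted for comparison. The shares over all promoters and symbols are therefore no baseline for these genes. A match describes sequence and is no evidence of binding. Capitals mark the matches, each sequence is given 5′ to 3′ on the strand of the gene, and Il6 is added as the gene with the largest negative difference between the sets. The 80 bases lie at chr5:90891114-90891193 on the plus strand for Cxcl1, with matches 79 and 61 bases before the start, at chr12:55492648-55492727 on the minus strand for Nfkbia, with a match 19 bases before it, and at chr5:30013034-30013113 on the plus strand for Il6, with a match 34 bases before it.
Cxcl1: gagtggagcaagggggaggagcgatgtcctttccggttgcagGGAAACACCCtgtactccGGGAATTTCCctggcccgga
Nfkbia: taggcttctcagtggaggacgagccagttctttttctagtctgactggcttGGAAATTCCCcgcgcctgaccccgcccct
Il6: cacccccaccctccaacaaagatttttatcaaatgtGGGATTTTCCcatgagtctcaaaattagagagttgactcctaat
The matches in Nfkbia and the farther one in Cxcl1 are on the opposite strand. Cxcl1 and Nfkbia, with these motifs, were low on all 6 arrays, while Il6 overlapped the other 18, which ran from 5.20 to 8.62.

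Several matrix and protease genes were also low on the 6 arrays, while others of these lists were high. Col6a3, a chain of collagen VI, had 10.08, 10.72 and 10.41 on columns 8, 16 and 24 and 10.42, 10.71 and 10.60 on columns 7, 15 and 23, against 11.34 to 12.14 on the other 18. Col5a3 and Col6a2, other collagen chains, had differences of -1.51 and -0.80 between the 6 arrays and the rest. Plat and Plau, the tissue and urokinase plasminogen activators, ran from 6.07 to 6.76 and from 7.67 to 8.19 on the 6 arrays, against 7.03 to 9.05 and 8.45 to 10.44 on the rest. Mmp3, stromelysin, ran from 5.17 to 5.60, against 5.86 to 7.56. Of 39 matrix genes 6 were lower and 1 higher on all 6 arrays, and of 21 metalloproteinases and inhibitors 4 were lower and 1 higher, against 2.44% lower and 5.07% higher over all genes. The medians of the 2 lists were -0.12 and -0.04, with a higher mean on the 6 arrays for 13 and 9 genes. Col18a1, a basement membrane collagen, ran from 7.67 to 7.93 on the 6 arrays, against 6.59 to 7.61 on the rest, and Mmp19 was 0.82 higher with some overlap. Cd44, the hyaluronan receptor, differed by -0.60 and Thbs2, thrombospondin 2, by -0.56. Even Pdpn, the podoplanin by which the line is known, was lower on all 6 arrays (12.20 to 12.51) than on the rest (12.53 to 12.77).

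Further low genes came from several groups. Crabp1, a retinoic acid binding protein, had 9.99, 9.60 and 9.58 on columns 8, 16 and 24 and 10.13, 9.60 and 9.74 on columns 7, 15 and 23, against 11.32 to 12.17 on the others, with no other array near. Fosl1, a Fos family member, Ereg, the EGF receptor ligand epiregulin, and Id3, a BMP target, differed by -0.81, -1.11 and -1.13. Id3 had 8.52, 8.53 and 8.70 on columns 8, 16 and 24 and 8.38, 8.34 and 8.52 on columns 7, 15 and 23 (0.17, standard error 0.32), without overlap, each array above its neighbour. Mt2, a metallothionein that buffers zinc, ran from 11.99 to 12.12 on the 6 arrays, against 12.32 to 13.47. For its relative Mt1 the gap was under the rounding, with a highest value of 11.37 on the 6 arrays and a lowest of 11.37 on the rest. The list of metallothioneins and zinc handling was not low as a whole, with 2 of 12 genes lower and 1 higher on all 6 arrays and a median of -0.03. Hk2, hexokinase 2, and Pkm, pyruvate kinase, differed by -0.79 and -0.31, and the hypoxia and glycolysis list of 34 genes had a median of -0.26, with 3 genes lower and 0 higher on all 6 arrays (2.44% and 5.07% over all genes). The list medians of immediate early transcription factors and of YAP targets were -0.37 and -0.36.

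Genes that stood high on the 6 arrays included several of lysosomes and the p53 response. Srgn, the proteoglycan serglycin of secretory granules, had 9.40, 9.34 and 9.19 on columns 8, 16 and 24 and 9.51, 9.19 and 9.10 on columns 7, 15 and 23, against 7.25 to 8.50 on the other 18. Ctsh, the lysosomal protease cathepsin H, had 9.87, 9.97 and 9.95 on columns 8, 16 and 24 and 9.84, 10.03 and 9.92 on columns 7, 15 and 23, against 8.92 to 9.62 on the others, and the sets differed by 0.00. Of 38 lysosome and autophagy genes 12 were higher and 0 lower on all 6 arrays, against 5.07% and 2.44% over all genes, with a median of 0.19, among them Mcoln1, a lysosomal calcium channel (0.47 higher), Ctsa, cathepsin A (0.38) and Gaa, acid alpha-glucosidase (0.39). Ephx1, the microsomal epoxide hydrolase, had 9.96, 10.12 and 10.00 on columns 8, 16 and 24 and 9.95, 10.04 and 10.05 on columns 7, 15 and 23, against 8.77 to 9.19. Gsta4, a glutathione transferase for lipid aldehydes, ran from 12.34 to 12.71 on the 6 arrays, against 10.72 to 12.25. Mgst3, a microsomal glutathione transferase, went the other way, with 8.26 to 8.42 on the 6 arrays, against 9.28 to 10.14. Of 36 genes of NRF2, glutathione and antioxidant enzymes, a list without Mgst3, 4 were higher and 1 lower on all 6 arrays (5.07% and 2.44% over all genes), 19 had a higher mean and the median was 0.04.

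Trp53inp1, a p53 target that promotes autophagy, had 8.27, 8.59 and 8.44 on columns 8, 16 and 24 and 8.54, 8.51 and 8.48 on columns 7, 15 and 23, against 6.41 to 7.67 on the others. The cyclin Ccng1, the p53 ubiquitin ligase Mdm2 and the DNA repair gene Ddb2 were 0.45, 0.33 and 0.71 higher, and 4 of 23 p53 targets were higher and 0 lower on all 6 arrays, against 5.07% and 2.44% over all genes. As a whole the p53 list moved little, with a higher mean for 14 of 23 genes and a median of 0.07. Klf15, a transcription factor induced by glucocorticoids, was 0.83 higher. Irf7 and Oas2, genes of the interferon response, were 0.61 and 0.33 higher, in a list of 23 with 3 higher and 0 lower beside the same shares, although Ifnb1 itself was among the lowest genes. That interferon list had a higher mean for 15 of 23 genes and a median of 0.03. Of 31 mitotic genes 27 had a higher mean on the 6 arrays (median 0.17), but 2 were higher than on every other array, a share near the 5.07% over all genes. These 2 were Nusap1 and Kif2c, proteins of the spindle, at 0.53 and 0.46. In the unfolded protein and amino acid response 7 of 45 genes were higher and 1 lower, the lower share near that over all genes, and the higher ones took in Pck2, a mitochondrial enzyme of gluconeogenesis (0.36), and Pdia6, a disulfide isomerase (0.38). Without overlap, the largest positive values among genes not dim belonged to F8, coagulation factor VIII, Avil, and Csn3, kappa casein, at 1.80, 1.71 and 1.68, and the mean over the probe sets of Csn3 was 0.80. Averaging probe sets also gave less than the main value for Trp53inp1 (0.67), Nusap1 (0.34), Kif2c (0.23), Pdia6 (0.11), Col5a3 (-0.80), Mgst3 (-0.79) and Mt1 (-0.68), with the sign kept.

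**Figure D4:**
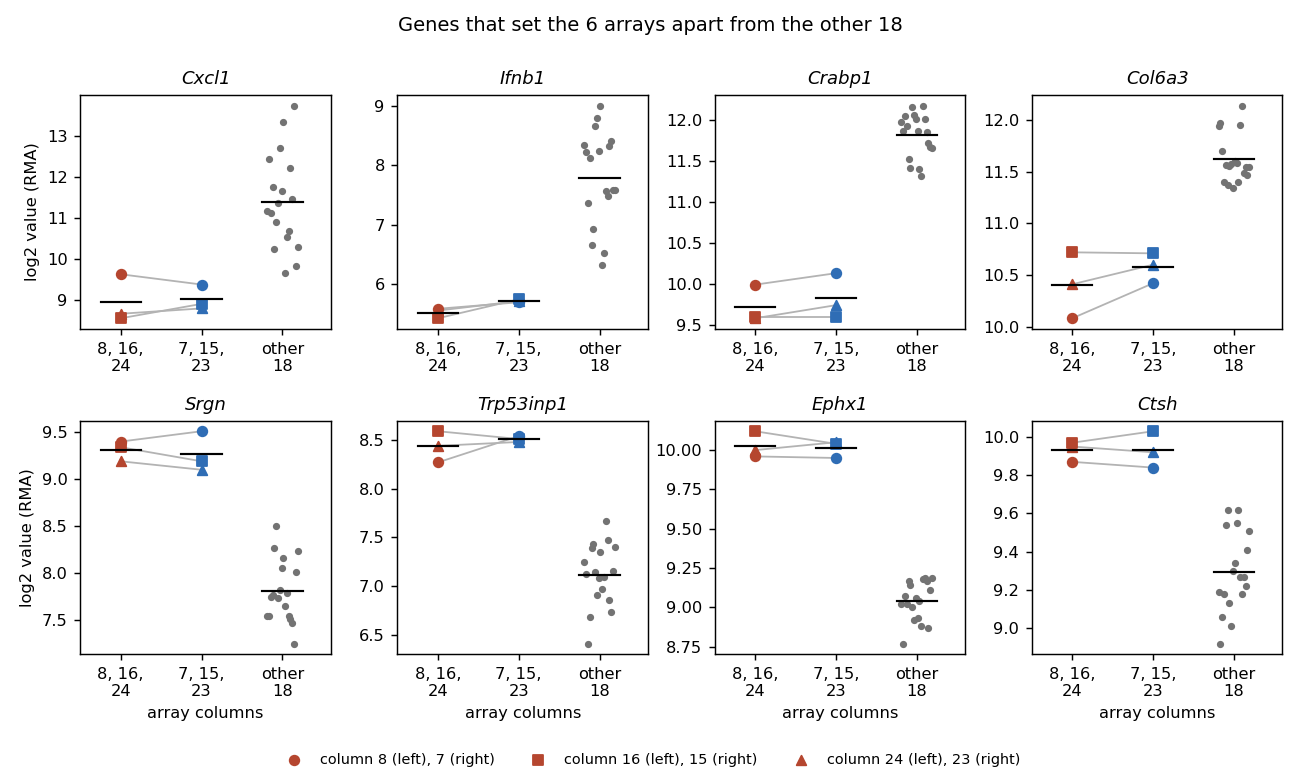
Log2 values of 8 genes on columns 8, 16 and 24 (red), columns 7, 15 and 23 (blue) and the other 18 arrays (grey), with means as bars and lines between neighbouring columns. The upper 4 genes are low and the lower 4 high on all 6 arrays, and the sets differ by at most 0.19 in any of the 8.

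**Figure D5:**
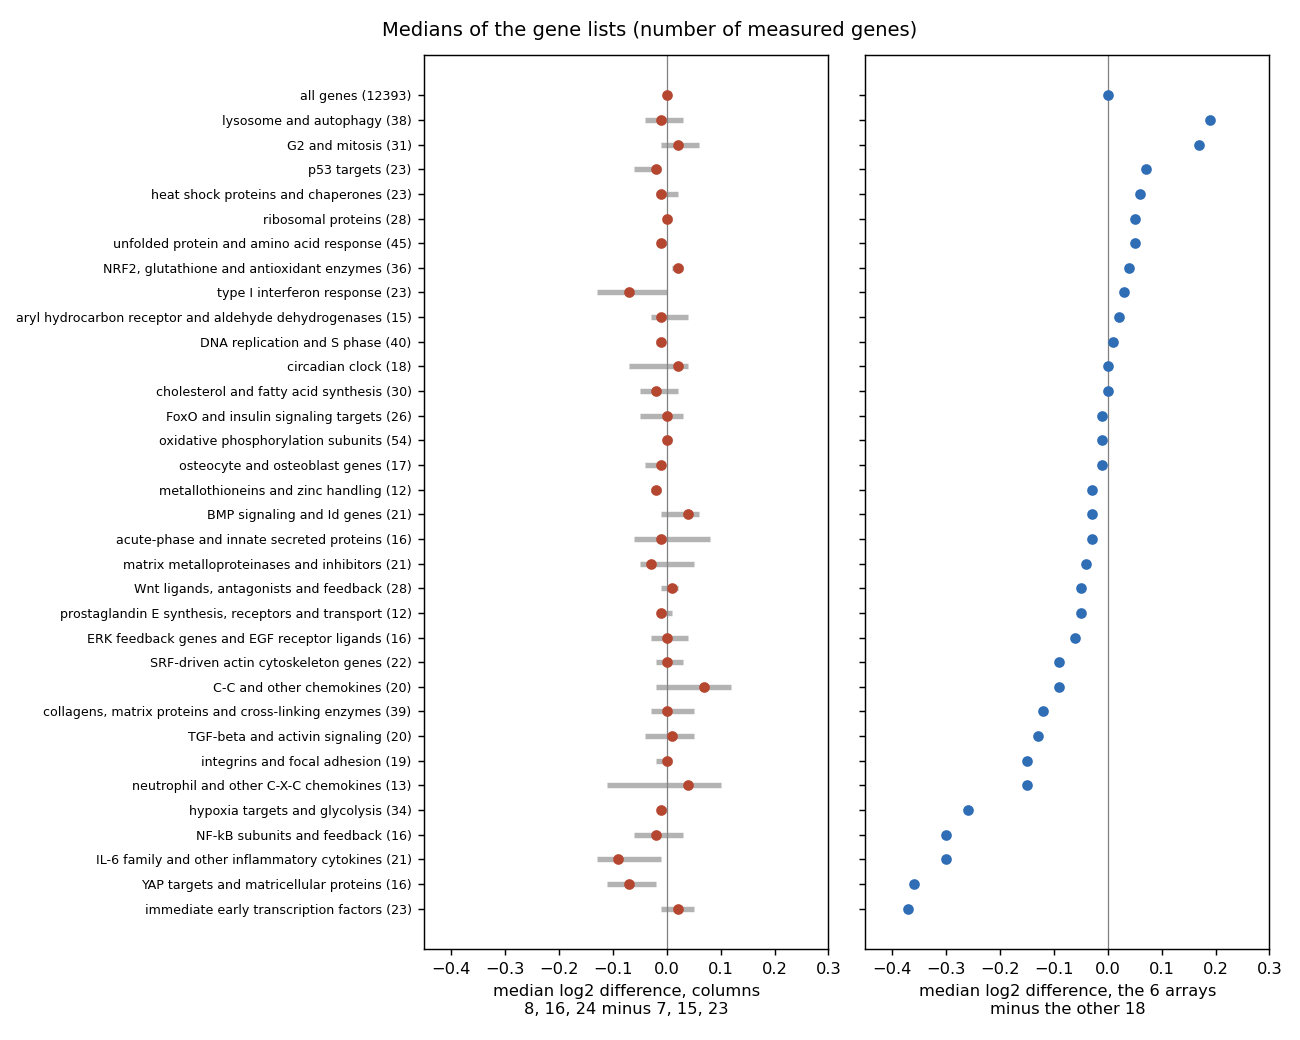
Median log2 difference of each of 33 gene lists and of all genes, for columns 8, 16 and 24 minus 7, 15 and 23 (left; grey bars, lowest to highest of the 3 neighbouring pairs) and for the 6 arrays minus the other 18 (right). The left medians stay between -0.09 and 0.07, whereas the right ones run from -0.37 for immediate early transcription factors to 0.19 for lysosome and autophagy genes.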

How the data were processed

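The authors deposited log2 expression values for 22690 probe sets, which the submitters' processing notes credit to RMA (version not given in the sources used here). RMA corrects background, equalizes array distributions and summarizes probes. Array medians still ran from 6.71 to 6.80, and no further normalization was applied. Arrays carry no counts, so their number limits the precision. Probe sets with 1 symbol in the platform annotation (20380) gave 12393 genes, each taken from its probe set with the highest mean. A mean for each of 8 sets was fitted over all 24 arrays (limma 3.58.1, R 4.3.3), with moderated tests, Benjamini-Hochberg adjustment over all genes and a threshold of 0.05. A gene was dim when fewer than 3 arrays reached a log2 value of 6. The fit was tested on simulated data.

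With no gene called, the naming rule gave, per list, the 2 genes of smallest p, and the text names some of them. Genes with the largest differences, and those of the 6 arrays against the other 18, were chosen after their values were seen. The members and lists were chosen with earlier results of these data known. Alternatives were blocks, array weights, moderation, normalization, centring, filters, probe set choices, control covariates and each array left out.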

Additional observations from a re-analysis of the deposited data

Results flagged for a closer look

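A single array stood apart from the other 5 of the 6 for 3 of 96 genes examined by Dixon's test, which chance does for about 1 in 20 groups. Egr1 had 9.31 on column 8 (sham 2 h replicate 2), against 8.47 on the next array. Wnt5a had 4.25 on column 8, against 3.65. Col5a3 had 8.03 on column 15 (sham 8 h replicate 3), against 7.71.

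For the following genes all 3 neighbour differences between columns 8, 16 and 24 and columns 7, 15 and 23 had one sign, and all 3 of another pair of sets had the opposite one. The differences between pairs of sets were not tested one by one, and in the test against the mean of the 3 other pairs every gene named here had an adjusted p of 1. Il6 had -0.46, against 1.07 for columns 4, 12, 20 minus 3, 11, 19 and 0.68 for columns 6, 14, 22 minus 5, 13, 21. Rel had -0.30, against 0.27 for columns 4, 12, 20, where Arnt had -0.24 against 0.10 and Sesn3 had 0.25 against -0.21. Rel and Sesn3 were at dim levels. Against columns 2, 10, 18 minus 1, 9, 17, Thbs1 had -0.29 and 1.06, Irgm1 -0.13 and 0.22, Ltbp1 -0.13 and 0.06, and Nqo1 0.17 and -0.15. Against columns 6, 14, 22 minus 5, 13, 21, Mcm3 had -0.12 and 0.04, and Nampt -0.10 and 0.05. Both of these pairs were opposite for Il15 (-0.31, against 0.30 and 0.21), Cd274 (-0.30, against 0.44 and 0.27), Mertk (-0.30, against 0.22 and 0.08), Ifih1 (-0.15, against 0.11 and 0.07) and Dmp1 (-0.11, against 0.09 and 0.06).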

How the results depend on the processing

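The count of called genes between the 2 sets stayed at 0 under every alternative run, with replicate block, column block and array weights included, and so did the count against the other pairs of sets. The replicate numbers of the labels gave no pairing, and if the labels do not match the columns neither this check nor the block has a meaning. Deviations of same-numbered arrays from their labelled group means correlated at -0.0550 on average and as low as -0.498, and 464 genes had an unadjusted p under 0.05 with the replicate block, against 466 without it. With each pair of neighbouring columns as a block, chosen after seeing the data, 839 genes had an unadjusted p under 0.05 and the smallest adjusted p was 0.399. Deviations of neighbouring columns from set means correlated at 0.419 on average. The filter on dim genes left 139 genes at an unadjusted p under 0.05, since 339 of the 466 were dim, and 205 higher and 397 lower without overlap, since 377 of the 582 higher and 84 of the 481 lower ones were dim. Leaving out each array in turn gave 924 to 1442 genes higher and 843 to 1226 lower without overlap, since 2 arrays against 3 overlap less often. The median of genes under a level of 6 was 0.0124 after quantile normalization again and 0.0235 to 0.0623 with an array left out. The median of the other genes was 0.00426 after quantile normalization again, where it changed sign, -0.00309 after centring, and -0.0191 to -0.00226 with an array left out. Of 702 values of 42 named genes between the sets, 1 changed sign, that of Egr1 without column 8 (-0.112), and leaving out each array in turn gave Egr1 -0.112 to 0.546. Of 400 list medians, 85 moved by more than the spread of the neighbouring pairs, within -0.119 and 0.216.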
